A study of Homo sapiens with 6 samples.

Results

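Matricellular and adhesive glycoproteins were represented by 10 genes, taken from the deposited expression table by gene name. These were the thrombospondins THBS1, THBS2 and THBS3, the CCN proteins CCN1 and CCN2, tenascin C (TNC), SPARC, periostin (POSTN), fibronectin (FN1) and osteopontin (SPP1). All 10 were found once each among the 60671 genes of the table. The libraries came from U87, an established line of human glioblastoma cells, so every value refers to a single cultured line. The control group (n = 3) received 0.1% DMSO for 48 h, and the rutaecarpine group (n = 3) received 100 μM rutaecarpine for 48 h, diluted from a DMSO stock into medium without serum. Rutaecarpine is an alkaloid that the study examined as an agonist of the aryl hydrocarbon receptor and as an inhibitor of cell migration. The labels do not say whether the 3 libraries of a group came from separate cultures. The study's statistical methods describe n = 3 as independent experiments, without naming these libraries. The p-values therefore set the group difference against the spread between these libraries, which may be technical.

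Matricellular proteins are secreted into the extracellular matrix but mainly signal to cells, through integrins, syndecans and other surface receptors, and many of them loosen or strengthen cell attachment. Fibronectin is a structural adhesive glycoprotein that cells assemble into fibrils and on which they spread and move. In glioblastoma, tenascin C, SPARC, osteopontin and fibronectin are known components of the tumour matrix. CCN1 and CCN2 are classical targets of the YAP/TEAD and MRTF/SRF transcription factors, which respond to the actin cytoskeleton, and CCN2, THBS1 and FN1 are also known to respond to TGF-beta.

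The values are TPM, the estimated transcripts of a gene scaled for transcript length and to a common library total, so that levels can be compared between genes. They summed to between 990889 and 995734 per library. The reads behind a value are unknown, so counting error is not given. Groups were compared with limma on log2(TPM + 1) over the 14377 genes with at least 1 TPM in at least 3 libraries, and p-values were adjusted over all of them by the Benjamini-Hochberg method. A gene passed the test at an adjusted p of at most 0.05, and was called a DEG where the absolute log2 fold change was also above 1. With 3 libraries against 3, an exact permutation test of a single gene cannot go below p = 0.1, so the adjusted p-values depend on limma sharing its estimate of spread among genes. In bulk RNA, less RNA per cell and fewer cells of a type cannot be told apart.

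Control replicate 3 differed from the other controls. It was the lowest control for 9 of the 9 tested members, and for 62.3% of all tested genes. Its median difference from the mean of control replicates 1 and 2 was -0.33 over the members and -0.24 over all tested genes, on the log2(TPM + 1) scale. Results that rest on this library are given with and without it. CYP1B1, a target gene of the aryl hydrocarbon receptor, rose from 69.96 ± 23.6 to 390 ± 47.3 TPM (SD, n = 3, adjusted p = 0.00191 from limma), which checks the labels. GAPDH, a glycolytic enzyme used as a reference, had a log2 fold change of -0.15 (adjusted p = 0.360 from limma). Its rutaecarpine libraries (9899 to 10927 TPM) all lay below its controls (11165 to 12216 TPM), as did those of 14.0% of all tested genes. Of 9 astroglial and glioma markers, 4 were high enough to be tested, AQP4 was listed at 0 in all libraries and SOX2 did not exceed 0.06 TPM. The summed level of these 9 was 39.6 to 51.5 TPM in controls and 29.97 to 33.95 TPM after rutaecarpine, most of it SLC1A3 and NES. NES passed on the lower side (log2 fold change -0.53, adjusted p = 0.0491 from limma) and OLIG2 on the higher side (0.83, adjusted p = 0.0262). When 1 library at a time was left out, both passed only in the fit without control replicate 3. SLC1A3 and GFAP had log2 fold changes of -0.997 and 0.18 (adjusted p = 0.0847 and 0.619 from limma). Without control replicate 3, SLC1A3 passed (-1.23, adjusted p = 0.0135 from limma) and GFAP did not (0.31, adjusted p = 0.309). All 5 mesenchymal markers were tested, with a sum of 9757 to 10676 TPM in controls and 7928 to 8562 TPM after rutaecarpine. Most of this sum was VIM, the only one of the 5 to pass (log2 fold change -0.63, adjusted p = 0.00894 from limma). VIM passed in 3 of the 6 fits that left out 1 library. CHI3L1 and CD44 had log2 fold changes of 0.33 and 0.25 (adjusted p = 0.223 and 0.598 from limma). The 5 endothelial markers summed to 2.52 to 4.16 TPM and 3.16 to 4.71 TPM, and the 4 epithelial markers to 1.36 to 3.11 TPM and 1.25 to 2.11 TPM. The 5 immune markers summed to 452 to 511 TPM and 319 to 357 TPM, nearly all of it CD68, a lysosomal protein, while PTPRC did not exceed 0.03 TPM and AIF1 was listed at 0. The 4 neuronal markers summed to 22.5 to 32.6 TPM and 19.3 to 21.7 TPM. Most of this was SNAP25, while RBFOX3 and STMN2 did not exceed 0.15 and 0.08 TPM. SNAP25 had a log2 fold change of -0.58 (adjusted p = 0.0662 from limma), and passed without control replicate 3 (-0.72, adjusted p = 0.00374). The part of these differences in the results below was not tested.

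Among the glycoproteins, THBS1 rose and CCN2, FN1 and SPARC fell after rutaecarpine. Of the 9 members tested, 4 passed the test, against 9.29% of all tested genes. The 1 that rose compares with 4.60% of all tested genes, and the 3 that fell compare with 4.68%. THBS1 and CCN2 were DEGs, against 3.51% of all tested genes, 2.01% higher and 1.50% lower. The groups did not overlap for 5 of the 9, namely these 4 and CCN1, against 33.3% of all tested genes. The median log2 fold change of the 9 was -0.38, against 0.08 over all tested genes. Each of the 9 was above 1 TPM in all 6 libraries, so none entered the test through 1 group alone. Without control replicate 3, 7 of the 9 passed, with THBS2, CCN1 and TNC added on the lower side, against 18.7% of all tested genes in that fit. The 1 higher compares there with 8.36% and the 6 lower with 10.3%. FN1 became a DEG, making 3 among the 9, against 4.12% of all tested genes, 1.97% higher and 2.15% lower. The median of the 9 was then -0.55, against -0.01 over all tested genes. THBS1 and CCN2 also stand among the migration-related genes that the study selected from these same samples, so their direction here is not independent evidence.

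**Figure D1:**
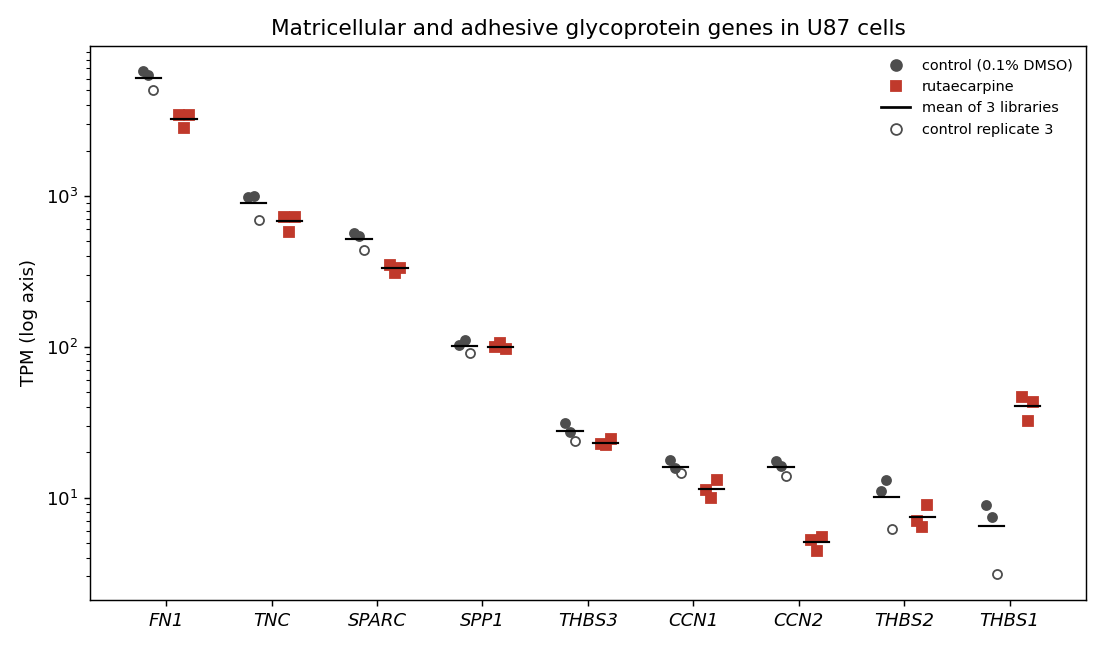
TPM of the 9 tested glycoprotein genes in each library, on a log axis, ordered by mean level in the control group. Circles are control libraries, with replicate 3 open, squares are rutaecarpine libraries and lines are the means of 3 libraries. FN1 lies highest in both groups, and THBS1 is the gene whose rutaecarpine libraries all lie above its controls.

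Thrombospondins are large multimeric glycoproteins that bind integrins, CD47 and heparan sulphate. THBS1 and THBS2 are trimers that inhibit angiogenesis, and THBS1 is also an activator of latent TGF-beta, whereas THBS3 is a pentamer. THBS1 (ENSG00000137801; chromosome 15, 39581079 to 39599466 on GRCh38, plus strand) had 8.87, 7.47 and 3.09 TPM in control replicates 1, 2 and 3, and 46.4, 32.3 and 42.8 TPM in rutaecarpine replicates 1, 2 and 3. Every rutaecarpine library was far above every control library, and the lowest value was that of control replicate 3. The mean TPM was 6.25 times as high after rutaecarpine, with a log2 fold change of 2.55 ± 0.34 (SE, adjusted p = 0.00517 from limma). Without control replicate 3 it was 2.17 ± 0.16 (SE, adjusted p = 0.000222), and THBS1 was a DEG in all 6 fits that left out 1 library each. Part of the THBS1 locus is overlapped on the opposite strand by FSIP1, which lay between 2.45 and 7.05 TPM with a log2 fold change of 0.32 (adjusted p = 0.567). The sources used here do not say whether counting used strand.

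THBS2 (ENSG00000186340; chromosome 6, 169215780 to 169254044, minus strand) had 11.1, 13.1 and 6.15 TPM in the 3 controls, and 7.01, 6.35 and 8.93 TPM after rutaecarpine. The groups overlapped, because control replicate 3 lay below all 3 rutaecarpine libraries while the other controls lay above them. The log2 fold change was -0.36 (95% interval -1.01 to 0.30, adjusted p = 0.474 from limma), and -0.65 without control replicate 3 (adjusted p = 0.0365). Part of THBS2 is overlapped on the opposite strand by THBS2-AS1, at 1.11 to 2.58 TPM, so the reads of THBS2 may not be wholly its own. THBS3 (ENSG00000169231; chromosome 1, 155195588 to 155209051, minus strand) had 31.5, 27.3 and 23.7 TPM in the controls, and 22.5, 22.4 and 24.3 TPM after rutaecarpine. These groups overlapped as well, with a log2 fold change of -0.24 (95% interval -0.54 to 0.07, adjusted p = 0.328). THBS3 overlaps the antisense gene THBS3-AS1, at 3.08 to 5.34 TPM, and the start of MTX1, at 63.4 to 82.4 TPM, so its reads may not be wholly its own.

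Within each library, the level of THBS1 was set against that of its relative THBS2 as log2 of the ratio of TPM + 1, in which scaling of a whole library nearly cancels. The ratio was -0.30, -0.74 and -0.81 in the control libraries and 2.56, 2.18 and 2.14 after rutaecarpine. THBS2 was therefore the more abundant of the pair in every control and THBS1 in every treated library. The difference between groups was 2.91, with an exact two-sided permutation p of 0.1, the smallest that 3 against 3 allows, and 0.1 after Benjamini-Hochberg adjustment over the 2 ratios examined.

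CCN1 and CCN2 are cysteine-rich secreted proteins that bind integrins and heparan sulphate. Both promote adhesion, and CCN2 also promotes matrix production. CCN2 (ENSG00000118523; chromosome 6, 131948176 to 131951373, minus strand) had 17.5, 16.1 and 13.98 TPM in control replicates 1, 2 and 3, and 5.25, 4.42 and 5.45 TPM in the rutaecarpine replicates. The groups were widely separated, and the libraries of each group lay close together. The mean TPM was 3.15 times as high in the control group, with a log2 fold change of -1.48 ± 0.16 (SE, adjusted p = 0.00207 from limma). In the fits that each omitted 1 library it ranged from -1.56 to -1.40, and CCN2 was a DEG in all 6 of them.

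CCN1 (ENSG00000142871; chromosome 1, 85580761 to 85583962, plus strand) had 17.7, 15.8 and 14.5 TPM in the controls, and 11.2, 9.98 and 13.1 TPM after rutaecarpine. All rutaecarpine libraries lay below all controls, though the highest of them came close to the lowest control. The log2 fold change was -0.45 (95% interval -0.81 to -0.09), with an unadjusted p of 0.0205 and an adjusted p of 0.124 from limma. CCN1 passed the test without control replicate 3 (-0.52, adjusted p = 0.0434) and after median centring of the libraries (-0.54, adjusted p = 0.0400).

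In the controls, the CCN genes were expressed almost equally, at 15.97 ± 1.61 TPM for CCN1 and 15.9 ± 1.78 TPM for CCN2 (SD, n = 3). The log2 ratio of CCN1 to CCN2 within a library was 0.01, -0.03 and 0.05 in the controls, and 0.97, 1.02 and 1.13 after rutaecarpine. The ratio rested near 0 in every control and near 1 in every treated library. The difference was 1.03, with an exact two-sided permutation p of 0.1, again the smallest possible, and 0.1 after adjustment over the 2 ratios.

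**Figure D2:**
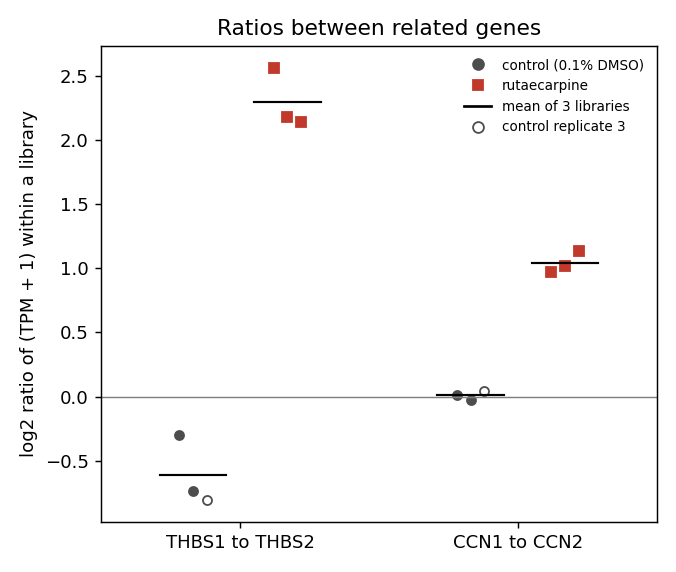
Log2 ratio of (TPM + 1) between related genes within each library, for THBS1 to THBS2 and CCN1 to CCN2. Circles are controls, with replicate 3 open, squares are rutaecarpine libraries and lines are means of 3, and the groups are separate for both ratios, by 2.91 and 1.03 between the means.

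The stretches before the transcript starts of THBS1 and CCN2 are shown because these genes were the DEGs among the members and moved in opposite directions. They are the 250 bases upstream of the RefSeq transcript start on GRCh38.p14, chr15:39580829-39581078 on the plus strand and chr6:131951373-131951622 on the minus strand, written 5′ to 3′ on the strand of the gene. Capitals mark GGAATG, the core of the motif bound by TEAD factors, and GCGTG, the core of the motif bound by the aryl hydrocarbon receptor, each searched on both strands.
THBS1: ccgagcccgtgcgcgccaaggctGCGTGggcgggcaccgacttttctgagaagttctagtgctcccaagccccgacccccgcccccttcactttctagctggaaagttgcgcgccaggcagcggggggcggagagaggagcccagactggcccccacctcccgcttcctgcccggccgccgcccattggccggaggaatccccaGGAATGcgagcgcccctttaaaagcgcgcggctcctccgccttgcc
CCN2: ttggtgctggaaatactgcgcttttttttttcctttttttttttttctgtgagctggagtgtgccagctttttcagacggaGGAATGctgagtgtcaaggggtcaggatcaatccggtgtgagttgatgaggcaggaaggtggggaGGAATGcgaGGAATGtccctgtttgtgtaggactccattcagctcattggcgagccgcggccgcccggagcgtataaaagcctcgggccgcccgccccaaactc
CCN2 holds GGAATG 3 times, beginning 169, 104 and 95 bases before the start, and THBS1 holds it once, 46 bases before the start. At least 1 match was found in 11.9% of the 35116 upstream windows of the same length in the RefSeq table, and at least 3 in 0.0826%. Among the other members, THBS2 held 2 matches and SPARC 1, and FN1, TNC, SPP1, THBS3 and POSTN held none. GCGTG occurred once, in THBS1, 227 bases before the start, a match that 32.2% of all windows share. The longer form TNGCGTG was in none of the members' windows and in 4.52% of all windows. CCN1 had no entry in the table, and 9 of the 10 members were matched. These matches describe letters in a short window and were not tied to binding.

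Fibronectin was the most abundant of the glycoproteins by a wide margin. FN1 (ENSG00000115414; chromosome 2, 215360440 to 215436172, minus strand) had 6721, 6338 and 5016 TPM in control replicates 1, 2 and 3, and 3451, 2816 and 3454 TPM after rutaecarpine. Each control exceeded each rutaecarpine library by a wide gap, control replicate 3 included. By level among the 60671 genes, its median rank was 15 in the control group and 30 after rutaecarpine. Its mean TPM was 1.86 times as high in the control group, with a log2 fold change of -0.89 ± 0.14 (SE, adjusted p = 0.00972 from limma). FN1 passed the test in all 6 fits that left out 1 library each, and its log2 fold change went beyond -1 without control replicate 3 (-1.02, adjusted p = 0.000671) and with a correction for transcript length and GC content (-1.01, adjusted p = 0.000152).

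SPARC, a collagen-binding glycoprotein that counters cell spreading, changed in the same direction. SPARC (ENSG00000113140; chromosome 5, 151661096 to 151687165, minus strand) had 568, 539 and 441 TPM in the controls, and 350, 309 and 333 TPM after rutaecarpine. The groups did not overlap, and control replicate 3 was the control nearest to the treated libraries. The log2 fold change was -0.63 ± 0.11 (SE, adjusted p = 0.0155 from limma) and -0.74 without control replicate 3 (adjusted p = 0.000616). Leaving out any 1 of the other 5 libraries took the adjusted p of SPARC to between 0.0536 and 0.0752, with log2 fold changes from -0.68 to -0.56.

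Tenascin C is a hexameric glycoprotein of invasive tumour borders that weakens adhesion to fibronectin. TNC (ENSG00000041982; chromosome 9, 115019578 to 115118257, minus strand) had 984, 994 and 696 TPM in the controls, and 728, 580 and 723 TPM after rutaecarpine. Control replicates 1 and 2 lay above the treated libraries, while control replicate 3 lay among them. The log2 fold change was -0.38 (95% interval -0.77 to 0.0001, adjusted p = 0.205 from limma), and -0.55 without control replicate 3 (adjusted p = 0.0100). With the length and GC correction it was -0.41 (adjusted p = 0.0378).

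Osteopontin, a phosphorylated ligand of integrins and CD44, was level between the groups. SPP1 (ENSG00000118785; chromosome 4, 87975650 to 87983426, plus strand) had 103, 111 and 90.6 TPM in the controls, and 99.2, 105 and 96.3 TPM after rutaecarpine. The treated libraries lay within the range of the controls. The log2 fold change was -0.01 (95% interval -0.24 to 0.22, adjusted p = 0.952 from limma). Periostin, a fasciclin-domain protein that crosslinks collagen and fibronectin, was scarcely present. POSTN (ENSG00000133110; chromosome 13, 37562583 to 37598844, minus strand) had 0.02, 0.05 and 0.05 TPM in the controls and was listed at 0, 0.04 and 0 after rutaecarpine, and it was not tested.

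**Figure D3:**
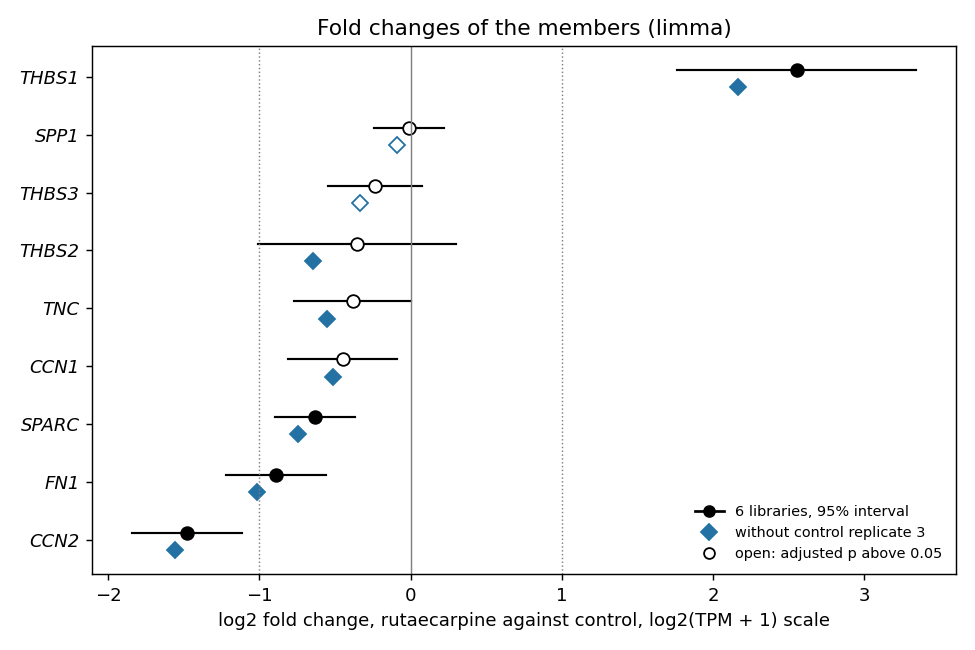
Log2 fold change of each tested member, rutaecarpine against control, on the log2(TPM + 1) scale. Circles are fits with 6 libraries with their 95% intervals, diamonds are fits without control replicate 3, open symbols have an adjusted p above 0.05 and dotted lines mark the DEG limits of 1 and -1. THBS1 lies at 2.55 and CCN2 at -1.48, and leaving out control replicate 3 shifts all 9 toward lower values.

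The order of the members by level changed at its lower end. In the controls it ran FN1, TNC, SPARC, SPP1, THBS3, CCN1, CCN2, THBS2, THBS1 and POSTN. The ranges over the 3 controls overlapped between CCN1 and CCN2 and between THBS2 and THBS1, and did not overlap between any other neighbours. After rutaecarpine THBS1 stood next after SPP1, above THBS3, CCN2 stood below THBS2, and no neighbours overlapped. The 10 genes together took 0.853, 0.814 and 0.633% of all TPM in control replicates 1, 2 and 3, and 0.476, 0.391 and 0.474% after rutaecarpine. FN1 made up 79.2 ± 0.51% of that sum in the controls and 73.0 ± 0.51% after rutaecarpine (SD, n = 3), so the sum mostly follows FN1. Without FN1, the other 9 genes summed to 1741, 1723 and 1289 TPM in the controls, and to 1270, 1070 and 1247 TPM after rutaecarpine, where control replicate 3 came close to the highest treated library.

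Relatives of the members were examined as a list of 21 other genes of the same protein families, of which 9 were high enough to be tested. Of these, 4 passed the test, 1 higher and 3 lower, against 9.29% of all tested genes, and their median log2 fold change was -0.30, against 0.08 over all tested genes. Without control replicate 3, 8 of them were tested, with a median of -0.64. TGFBI, a relative of periostin that binds collagen and integrins, was the most abundant at 4404 ± 244 TPM in controls and 2416 ± 101 TPM under rutaecarpine (SD, n = 3). It fell with a log2 fold change of -0.87 (adjusted p = 0.00138 from limma), and passed in all 6 fits that left out 1 library. Among CCN relatives, CCN3 fell from 13.2 ± 1.88 to 7.42 ± 0.64 TPM (adjusted p = 0.0297), and CCN5 from 1.77 ± 0.27 to 0.31 ± 0.072 TPM (adjusted p = 0.00937). CCN5 was the DEG of this list, but it entered the test only through its control libraries. With any 1 control library left out, control replicate 3 included, it was too low to be tested. TNXB, a tenascin of connective tissue, rose from 6.36 ± 0.64 to 10.8 ± 1.17 TPM (adjusted p = 0.0402). Of the 6 fits that left out 1 library, CCN3 and TNXB each passed in 1. CCN5 was tested only in those that left out a rutaecarpine library, and passed in 2 of these. The number of relatives passing lay between 1 and 6 in those fits, with the 6 (1 higher, 5 lower) obtained without control replicate 3, where 18.7% of all tested genes passed.

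Of 18 listed surface receptors of these proteins, 12 were tested and 4 passed, 2 higher and 2 lower, against 9.29% of all tested genes (4.60% higher, 4.68% lower). Their median log2 fold change was 0.08. Without control replicate 3 it was -0.16, with 2 higher and 4 lower, against 8.36% and 10.3% of all tested genes. The DEGs were ITGB3, the partner of integrin alpha v in the classical vitronectin receptor, and ITGB8, whose integrin activates latent TGF-beta, both of which the study had selected from these same samples. ITGB3 rose from 29.9 ± 9.81 to 62.8 ± 10.9 TPM (SD, n = 3, adjusted p = 0.0487 from limma) and ITGB8 from 3.66 ± 1.64 to 10.6 ± 1.04 TPM (adjusted p = 0.0318). Without control replicate 3 their log2 fold changes were 0.79 and 1.045, down from 1.09 and 1.39. ITGA3 fell from 727 ± 9.30 to 454 ± 37.98 TPM (adjusted p = 0.00369) and SDC4, a syndecan that binds fibronectin, from 188 ± 27.4 to 126 ± 5.54 TPM (adjusted p = 0.0289). CD36, a receptor of THBS1, did not exceed 0.09 TPM, whereas CD47 was at 68.7 ± 18.3 TPM in controls and 65.5 ± 0.59 TPM under rutaecarpine (log2 fold change -0.03, adjusted p = 0.937), and passed without control replicate 3 (-0.27, adjusted p = 0.0297). ITGA3 passed in all 6 fits that left out 1 library, ITGB8 in 2, and ITGB3 and SDC4 in 1 each. The number of receptors passing lay between 1 and 6 over these fits.

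Of 20 other adhesive matrix glycoproteins, 11 were tested and 2 passed, both lower, against 9.29% of all tested genes (4.68% lower), with a median log2 fold change of -0.44. MATN2, a matrilin that bridges matrix filaments, was a DEG and fell from 23.8 ± 5.02 to 10.7 ± 1.63 TPM (SD, n = 3, adjusted p = 0.0176 from limma), and ECM1 fell from 163 ± 11.9 to 115 ± 8.06 TPM (adjusted p = 0.0183). MATN2 is also among the genes that the study selected from these samples. MATN2 and ECM1 each passed in 2 of the 6 fits that left out 1 library. EMILIN1, 1 of the 11, entered the test only through its control libraries, at 1.40 ± 0.24 TPM against 0.66 ± 0.17 TPM after rutaecarpine. Without control replicate 3 it was too low to be tested, and the median over the 10 genes tested was -0.40. Between 0 and 5 of the list passed in the fits that left out 1 library, with 5, all lower, obtained without control replicate 3 (10.3% of all tested genes).

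Lists of genes known to respond to the regulators named above for CCN1, CCN2, THBS1 and FN1 moved in both directions, except for the actin list. Of 20 YAP/TEAD target genes other than CCN1 and CCN2, 18 were tested and 6 passed, 3 higher and 3 lower, against 9.29% of all tested genes (4.60% higher, 4.68% lower). Their median log2 fold change was 0.04, and -0.27 without control replicate 3. The DEGs were IGFBP3 and F3 on the higher side, with log2 fold changes of 1.39 (adjusted p = 0.00277 from limma) and 1.36 (adjusted p = 0.0418), and FJX1 and AMOTL2 on the lower side, with -1.24 (adjusted p = 0.00101) and -1.22 (adjusted p = 0.00651). The study had selected IGFBP3, F3 and AMOTL2 from these same samples. F3 passed in 2 of the 6 fits that left out 1 library, at 0.96 without control replicate 3, and IGFBP3, FJX1 and AMOTL2 were DEGs in all 6. Between 3 and 11 of the list passed in those fits, 11 without control replicate 3 (3 higher, 8 lower), against 18.7% of all tested genes.

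Of 19 genes known to respond to TGF-beta, 16 were tested and 7 passed, 4 higher and 3 lower, against 9.29% of all tested genes (4.60% higher, 4.68% lower). Their median log2 fold change was 0.36, and 0.02 without control replicate 3. The DEGs were the type I collagen genes, which the study had also selected from these samples, COL1A1 at -1.17 (adjusted p = 0.000962 from limma) and COL1A2 at -1.22 (adjusted p = 0.000356). TGFBI, counted above, is also on this list. The 4 that rose were BHLHE40 (0.76, adjusted p = 0.0436 from limma), SMAD7 (0.59, adjusted p = 0.0357), JUNB (0.47, adjusted p = 0.0140) and CDKN1A (0.38, adjusted p = 0.0280). Each of these 4 passed in 1 of the 6 fits that left out 1 library. The number passing lay between 3 and 10 when 1 library was left out, with 10 (5 higher, 5 lower) without control replicate 3, against 18.7% of all tested genes.

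Of 14 MRTF/SRF target and actin cytoskeleton genes, 13 were tested and 5 passed, all lower, against 9.29% of all tested genes (4.68% lower), with a median log2 fold change of -0.52. ACTA2, smooth muscle actin, was the DEG of the list, with a log2 fold change of -1.19 (adjusted p = 0.00157 from limma), and it too had been selected by the study. CNN2 (calponin) fell from 78.9 ± 2.03 to 45.5 ± 0.97 TPM and TPM1 (tropomyosin) from 280.1 ± 30.2 to 167 ± 7.09 TPM (SD, n = 3), and both passed in all 6 fits that left out 1 library. The other 2 that passed were FLNA and ACTB, with log2 fold changes of -0.40 and -0.52, passing in 1 and 2 of those fits, and SRF itself was at 0.09 (adjusted p = 0.709). Between 3 and 8 of the list passed in those fits, with 8, all lower, obtained without control replicate 3 (10.3% of all tested genes).

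**Figure D4:**
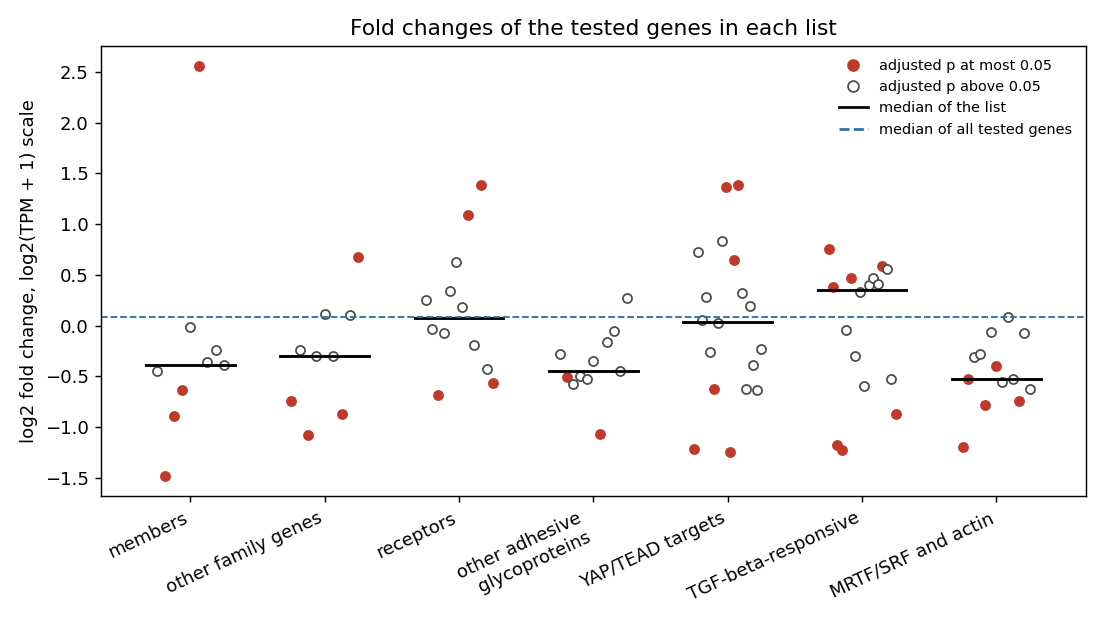
Log2 fold changes, rutaecarpine against control, of the tested genes in each list on the log2(TPM + 1) scale. Filled points passed at an adjusted p of at most 0.05, black lines are the medians of the lists and the dashed line is the median of all tested genes, 0.08, below which lie the medians of the members (-0.38), the relatives (-0.30), the adhesive glycoproteins (-0.44) and the actin list (-0.52), with the YAP/TEAD list (0.04) and the receptors (0.08) near it and the TGF-beta list (0.36) above it.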

How the data were processed

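RNA from 6 U87 libraries, 3 controls and 3 treated with rutaecarpine, was fragmented. It was sequenced for the authors by Majorbio on an Illumina NovaSeq. The authors quantified genes with RSEM and deposited TPM values, one column per library. The genome build in the submitters' processing notes is GRCh38.p13, and the aligner, annotation release, strand setting and filters are not given in the sources used here. RSEM divides reads that match several genes, so values of overlapping or near-identical genes are uncertain. Every value column belonged to 1 library, with 0 columns unmatched.

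TPM are not counts, and count models were therefore not applied. Values were taken as log2(TPM + 1), genes with at least 1 TPM in at least 3 libraries were kept (14377), and groups were compared with limma 3.58.1 in R 4.3.3 (empirical Bayes with a mean-variance trend, two-sided, Benjamini-Hochberg adjustment over all tested genes). The DEG thresholds follow the study's methods. Fold changes on this scale understate those of weakly expressed genes. Paralogue ratios were tested by exact permutation. Positions came from GENCODE release 29 and upstream sequences from RefSeq on GRCh38.p14. In the gene lists, DEGs were named by rule. TGFBI, CCN3, TNXB, ITGA3, SDC4, CD36, CD47, ECM1, EMILIN1 and SMAD7 were named after their values were seen. The same holds for BHLHE40, JUNB, CDKN1A, CNN2, TPM1, FLNA, ACTB and SRF. The members and lists were chosen with earlier results of these data known. Alternatives were a pseudocount of 0.1, other filters, median centring, no trend, a replicate block, a length and GC correction (splines with 5 degrees of freedom, 14267 genes) and leaving out each library. Figures were drawn with matplotlib 3.10.9 in Python 3.11.15.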

Additional observations from a re-analysis of the deposited data

How the results depend on the processing

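Over all tested genes there were 505 DEGs (289 higher, 216 lower), and 1335 genes passed the adjusted p alone. With the libraries centred on their medians there were 251 higher and 295 lower, and the median change over tested genes moved on the log2 scale from 0.08 to -0.01. Leaving out each library gave between 320 and 585 DEGs and between 500 and 2652 genes passing. Among the members it gave 2 to 3 DEGs and 3 to 7 passing, the highest without control replicate 3, and counting by adjusted p alone gave 4 in place of 2. The ranges of the log2 fold change over these fits were 2.17 to 2.80 for THBS1, -0.65 to -0.15 for THBS2, -0.55 to -0.36 for CCN1, -0.55 to -0.28 for TNC and -0.74 to -0.56 for SPARC. For SPP1 the range was -0.0896 to 0.054, and it turned positive without control replicate 2 (0.054) and without rutaecarpine replicate 3 (0.0164). CCN1 passed with centred libraries (-0.54) and TNC with the length and GC correction (-0.41). The difference in the CCN1 to CCN2 ratio was 1.15 with a pseudocount of 0.1. The cause of these shifts was not tested.

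Libraries with the same replicate number did not deviate together (r = 0.116, -0.266 and -0.215 over genes, which are not replicates), and 0 of 6 correlated best with their own number in the other group. With the replicate block, 318 genes were DEGs, 428 passed, and 2 members passed. SPARC (-0.63, adjusted p = 0.0605) and FN1 (-0.89, adjusted p = 0.0542) did not pass with the block. THBS1 and CCN2 were DEGs under every alternative run. The depth behind the TPM is unknown, which limits what can be said of weakly expressed genes such as POSTN and CCN5.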
